A study of Caenorhabditis elegans with 8 samples.

Results

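The insulin-like peptide genes of Caenorhabditis elegans were described in whole worms at day 6 of adulthood. They were taken by name from the deposited table as every protein-coding gene called ins with a number, plus daf-28, which gave 40 of the 46904 genes in the table. RNA came from 8 pools of whole worms of strain CL2006. CL2006 carries a transgene for the human amyloid beta peptide, which the unc-54 promoter drives in body wall muscle, together with the dominant roller marker rol-6. The labels call the genotype WT, and all libraries share this transgenic background. Of the pools, 4 were fed bacteria expressing double-stranded RNA against cpr-6, which encodes a cysteine protease of the cathepsin B type, and 4 were fed bacteria with the empty RNAi vector. Both groups were kept at 20 °C on their bacteria for a first generation and, from the egg, for the one that was harvested, whose progeny were removed each day. The libraries were made with CEL-Seq2, which reads the 3′ ends of polyadenylated transcripts.

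Insulin-like peptides are small secreted hormones with the disulphide-bonded fold of insulin. In the worm they act on a single insulin/IGF receptor, DAF-2. Agonists drive the kinases AGE-1, AKT-1 and AKT-2 and keep the FOXO factor DAF-16 out of the nucleus, while antagonists have the opposite action. Most of the peptides are made in sensory and other neurons, and some in intestine or epidermis. Together they set dauer entry, growth, learning and lifespan. In a pool of whole worms, fewer cells making a peptide and less of its RNA per cell cannot be told apart.

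Libraries held 8184412 to 10837163 counts with cpr-6 RNAi and 9489866 to 12506320 with the empty vector. The knockdown was visible in every library, with cpr-6 at 65.2 to 102 CPM (counts per 1000000 counts of the library) with cpr-6 RNAi and at 737 to 791 CPM with the empty vector. The library of cpr-6 RNAi replicate 4 stood apart. It had the largest share of mitochondrial transcripts (2.14%, against 0.805% to 1.16% in the other libraries). Levels of the oocyte genes oma-1 and oma-2 were lowest in it. Several sums, and the median fold change of the insulin-like peptide genes, are therefore also given without it. Medians of the other gene lists were not computed without it. Neuron markers were present at very different levels, and snb-1, at a mean of 647 CPM over the 8 libraries, dominated their sum. The neuropeptide-processing genes egl-21 and egl-3 averaged 245 and 89.3 CPM over the 8 libraries, whereas the pan-neuronal gene rgef-1 averaged 0.157 CPM and the transmitter genes tph-1, eat-4 and unc-47 0.239, 0.258 and 0.335 CPM. Summed over the 16 neuron markers, levels were 1038 to 1134 CPM with cpr-6 RNAi and 960 to 1129 CPM with the empty vector. In cpr-6 RNAi replicates 1 to 3 the neuron sums were 1038 to 1105 CPM. Summed over the 16 germline and embryo markers they were 2908 to 4250 CPM with cpr-6 RNAi and 3797 to 4131 CPM with the empty vector, and the 3 other cpr-6 RNAi libraries lay at 4020 to 4250 CPM. For 11 intestine markers the sums were 21200 to 31970 CPM with cpr-6 RNAi and 23630 to 31600 CPM with the empty vector. The range with cpr-6 RNAi was the same without replicate 4. The intestine sums were mostly the vitellogenin genes vit-5, vit-2 and vit-6, which averaged 15230, 5727 and 4262 CPM. In contrast, ges-1 and elt-2 averaged 7.07 and 12.15 CPM. For 10 hypodermis markers the sums were 967.1 to 1289 CPM with cpr-6 RNAi and 843.6 to 1082 CPM with the empty vector, with 967.1 to 1050.0 CPM in cpr-6 RNAi replicates 1 to 3. Highest among these markers was rol-6, which the transgene also carries, at a mean of 598 CPM over the 8 libraries. No gene of these 4 marker lists passed the test in edgeR, and 1, the intestinal actin gene act-5, had an unadjusted p under 0.05 in edgeR (0.0158), as did 3.85% of all genes tested.

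Nearly every family member gave at least 1 count, but counts were low for most of them. At least 1 count was found in some library for 39 of 40 genes and in all 8 libraries for 26, and ins-38 had none. A mean of 1 CPM or more over the 8 libraries was reached by 18 genes (45%). A single library detected 31 to 34 of the genes with cpr-6 RNAi and 30 to 32 with the empty vector. A gene with no count could still lie at up to 0.277 to 0.367 CPM in a cpr-6 RNAi library and 0.240 to 0.316 CPM in an empty vector library, which is what 3 counts amount to, and such limits cover counting error only. All 40 genes together took 123.3, 169.7, 159.5 and 218.5 CPM in cpr-6 RNAi replicates 1 to 4, against 165.3, 165.0, 153.1 and 166.2 CPM in empty vector replicates 1 to 4. These sums overlapped, averaging 168 ± 39.3 CPM with cpr-6 RNAi and 162 ± 6.22 CPM with the empty vector (SD, n = 4 each). The highest and the lowest of the 8 sums were both cpr-6 RNAi libraries. The order of the group means turned on 1 library: the cpr-6 RNAi mean was 150.8 CPM without replicate 4, below that of the empty vector, and 182.6 CPM without replicate 1.

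Genes of other secreted peptide families more often reached a mean of 1 CPM in the same worms. A mean of 1 CPM or more was found for 30 of 31 FMRFamide-like flp genes (96.8%), 63 of 76 nlp neuropeptide genes (82.9%) and 10621 of 20191 protein-coding genes (52.6%). At least 1 count in some library was found for 39 of 40 insulin-like peptide genes, 31 of 31 flp genes and 74 of 76 nlp genes. A count in all 8 libraries was found for 65.0%, 96.8% and 90.8% of these families and for 62.9% of protein-coding genes. The median gene stood at 0.788 CPM among insulin-like peptides, 10.6 CPM among flp genes and 6.23 CPM among nlp genes. The difference between the families was not tested. How far the deposited gene models reach at their 3′ ends, given below for insulin-like peptide genes, was not examined for flp and nlp genes.

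**Figure D1:**
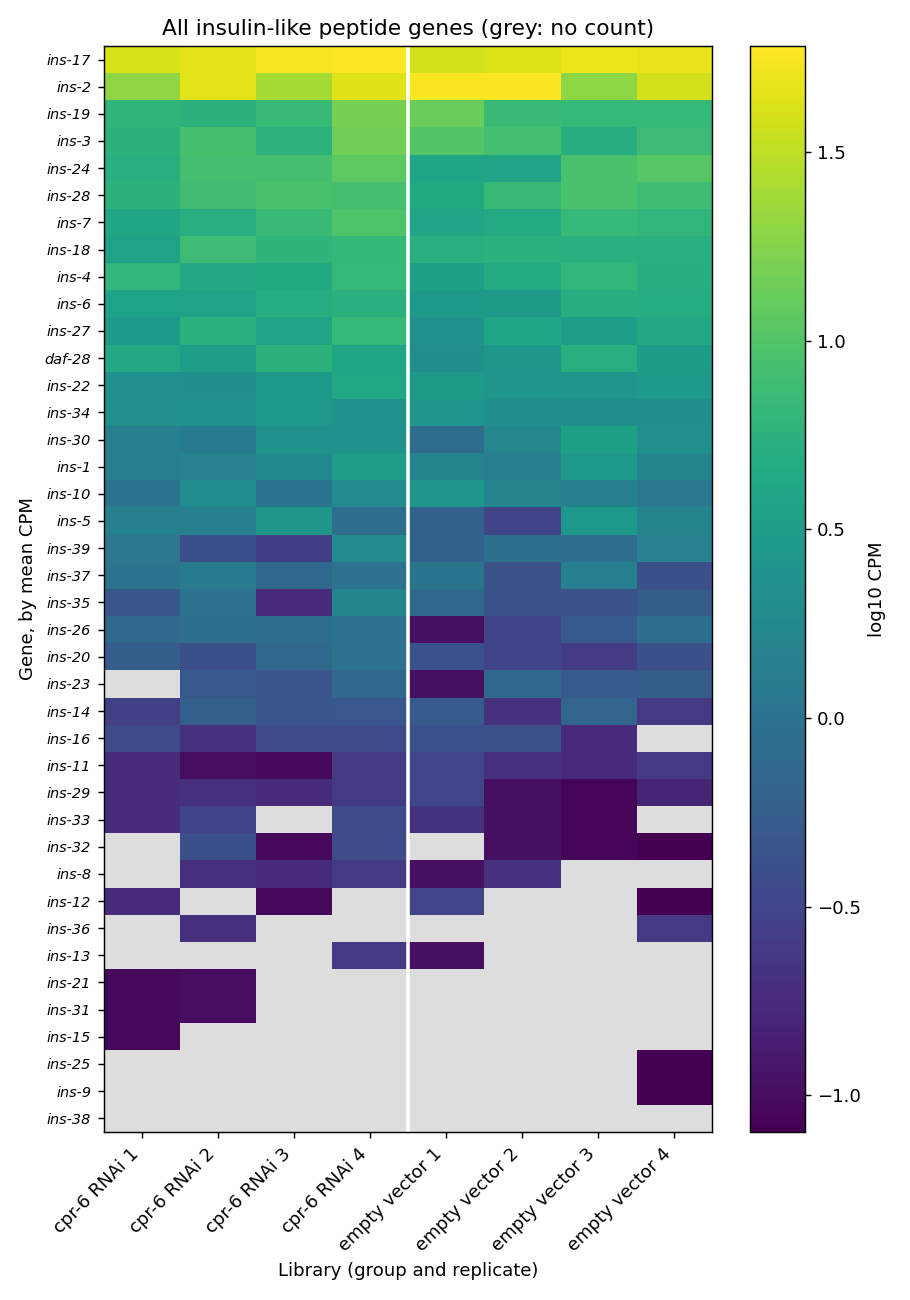
Colour shows log10 CPM of each of the 40 insulin-like peptide genes (rows, ordered by mean CPM) in each of the 8 libraries (columns, cpr-6 RNAi left of the white line and empty vector right of it), with grey where a library had no count. ins-17 and ins-2 head both groups, 26 genes have a count in every library, and ins-38 has none.

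A pair of genes carried most of the signal. ins-17 and ins-2 took 52.4% of the 13523 counts of the family over all libraries. In single libraries their joint share was 47.9% to 54.1% with cpr-6 RNAi and 46.5% to 61.0% with the empty vector. ins-17, whose product has been linked to dauer entry, stood at 40.3, 45.8, 55.1 and 60.5 CPM in cpr-6 RNAi replicates 1 to 4, against 38.0, 42.3, 51.6 and 49.0 CPM in empty vector replicates 1 to 4. The groups overlapped, and both had their lowest library at replicate 1. ins-2, described in the table as a probable beta-type peptide, stood at 20.3, 45.9, 24.5 and 44.1 CPM with cpr-6 RNAi, against 58.5, 58.3, 19.6 and 38.9 CPM with the empty vector. Its lowest and its highest library were both from the empty vector group. All libraries of ins-2 (19.6 CPM or more) lay above all libraries of the next gene in order, ins-19 (15.6 CPM or less). That was the only such gap among the 18 genes at 1 CPM or more. Every other pair of neighbours in the order overlapped in range, including ins-17 and ins-2.

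The order by CPM was ins-17, ins-2, ins-19, ins-3, ins-24, ins-28, ins-7, ins-18, ins-4, ins-6, ins-27, daf-28, ins-22, ins-34, ins-30, ins-1, ins-10 and ins-5. Reads from 3′ ends are not expected to grow in number with transcript length, so CPM was kept as the scale. Divided by the length of the longest annotated transcript, the order began with ins-17 at 85.9 CPM per kb, ins-2 at 66.9, ins-19 at 23.7, ins-28 at 21.2 and ins-24 at 15.97. Of the 10 highest genes by CPM, 9 were also among the 10 highest per kb.

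**Figure D2:**
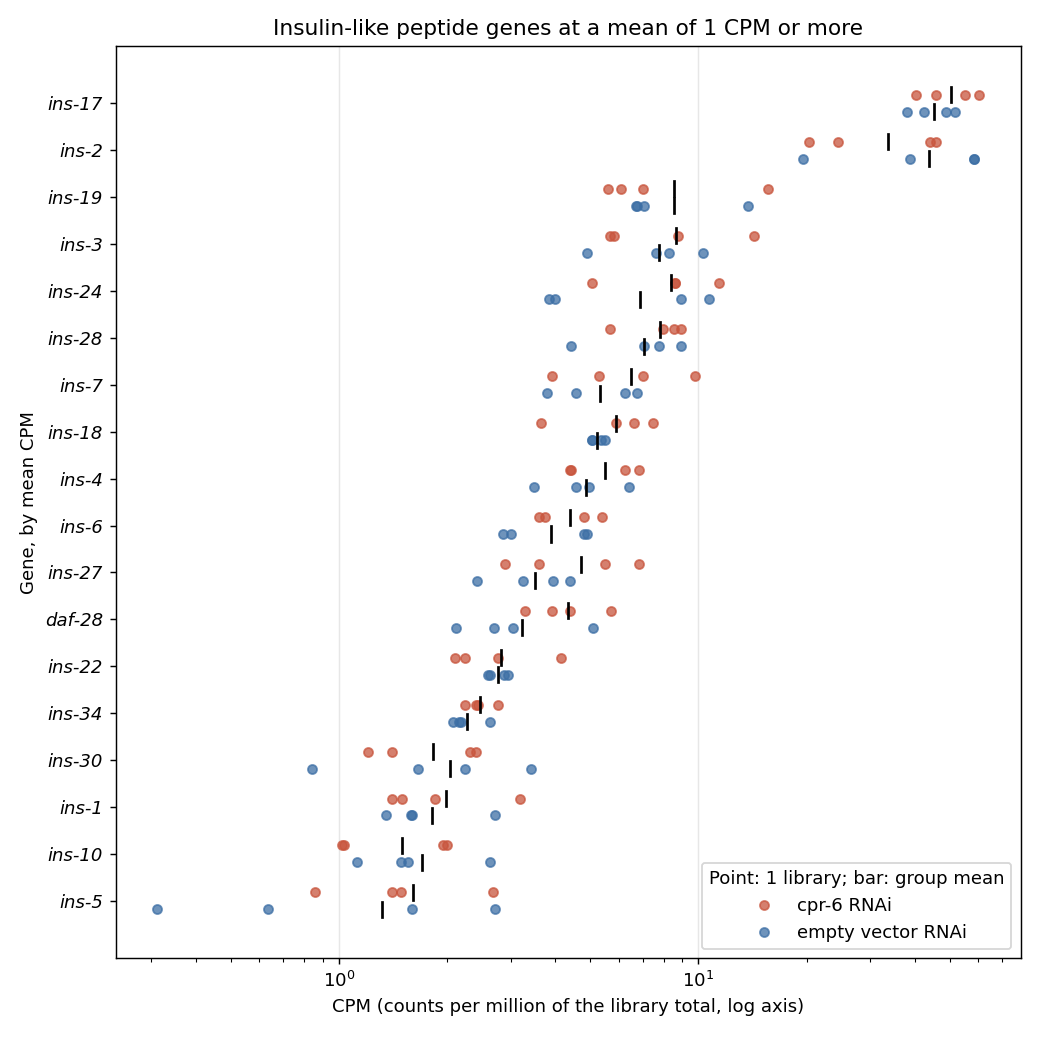
Level of the 18 insulin-like peptide genes with a mean of 1 CPM or more, in CPM on a log axis, 1 point per library and a black bar at each group mean, with cpr-6 RNAi above empty vector for each gene. The groups overlap for every gene, and ins-17 and ins-2 lie apart from the other genes.

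The beta-type peptides include the best known DAF-2 agonists. All 6 genes that the table describes as beta-type (ins-2 to ins-7) reached 1 CPM, from 1.46 CPM for ins-5 to 38.8 CPM for ins-2. Of these, ins-2 to ins-6 lie with ins-20 within 22.8 kb of chromosome II (WBcel235, 5988526 to 6011321). ins-3, which has been linked to germline proliferation in larvae, stood at 5.69, 8.79, 5.81 and 14.3 CPM with cpr-6 RNAi, against 10.3, 8.29, 4.91 and 7.60 CPM with the empty vector. The highest library was cpr-6 RNAi replicate 4 and the lowest was empty vector replicate 3. ins-4, a dauer-inhibiting agonist, stood at 6.25, 4.39, 4.43 and 6.84 CPM with cpr-6 RNAi, against 3.48, 4.56, 6.40 and 4.96 CPM with the empty vector. ins-5 was the scarcest and most scattered of the cluster's beta-type genes, at 1.49, 1.40, 2.68 and 0.855 CPM with cpr-6 RNAi, against 0.632, 0.311, 2.72 and 1.60 CPM with the empty vector. ins-6, an agonist of sensory neurons that promotes exit from dauer, stood at 3.73, 3.60, 4.8 and 5.38 CPM with cpr-6 RNAi, against 2.85, 3.0, 4.91 and 4.8 CPM with the empty vector. For ins-4, ins-5 and ins-6 empty vector replicate 3 was the highest of its group, whereas for ins-2 and ins-3 it was the lowest of all 8 libraries.

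Beyond this cluster, ins-7 and daf-28 are agonists on chromosomes IV and V. ins-7, which takes part in a feedback loop in which intestinal DAF-16 represses it, stood at 3.92, 5.29, 7.01 and 9.77 CPM with cpr-6 RNAi, against 3.79, 4.56, 6.75 and 6.24 CPM with the empty vector. daf-28, a sensory neuron peptide that prevents dauer arrest in food, stood at 4.39, 3.30, 5.72 and 3.91 CPM with cpr-6 RNAi, against 2.11, 2.69, 5.09 and 3.04 CPM with the empty vector. In both genes replicates 1 and 2 of the empty vector were among the 3 lowest of the 8 libraries.

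The best known antagonists of DAF-2 were also transcribed. ins-18 stood at 3.64, 7.49, 5.91 and 6.60 CPM with cpr-6 RNAi, against 5.06, 5.49, 5.35 and 5.04 CPM with the empty vector. Its empty vector libraries lay within the range of the cpr-6 RNAi libraries. ins-1, which acts in learning and antagonises DAF-2, stood at 1.40, 1.5, 1.85 and 3.18 CPM with cpr-6 RNAi, against 1.58, 1.35, 2.72 and 1.60 CPM with the empty vector. Its highest library was cpr-6 RNAi replicate 4.

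A second large cluster lies on chromosome I (WBcel235, 14012369 to 14037803, 25.4 kb) and holds 7 genes, of which 4 reached 1 CPM. ins-24 stood at 5.04, 8.59, 8.58 and 11.4 CPM with cpr-6 RNAi, against 4.0, 3.83, 8.95 and 10.7 CPM with the empty vector. Its lowest libraries were empty vector replicates 1 and 2. ins-28 stood at 5.69, 7.99, 8.95 and 8.55 CPM with cpr-6 RNAi, against 4.43, 7.04, 8.95 and 7.76 CPM with the empty vector. ins-27 stood at 2.89, 5.49, 3.60 and 6.84 CPM with cpr-6 RNAi, against 2.42, 3.94, 3.25 and 4.40 CPM with the empty vector. For ins-28 and ins-27 replicate 1 was the lowest library of each group. ins-30 stood at 1.40, 1.20, 2.40 and 2.32 CPM with cpr-6 RNAi, against 0.843, 1.66, 3.42 and 2.24 CPM with the empty vector. The other genes of this cluster, ins-26, ins-29 and ins-25, averaged 0.659, 0.185 and 0.010 CPM.

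The remaining genes at 1 CPM or more were ins-19, ins-22, ins-34 and ins-10. ins-19 stood at 6.07, 5.59, 7.01 and 15.6 CPM with cpr-6 RNAi, against 13.7, 7.04, 6.75 and 6.72 CPM with the empty vector, so that in each group a single library lay far above the others. ins-22, an alpha-type peptide widely used as a tagged cargo of dense core vesicles, stood at 2.24, 2.1, 2.77 and 4.15 CPM with cpr-6 RNAi, against 2.95, 2.59, 2.63 and 2.88 CPM with the empty vector. Its neighbours on chromosome III, the alpha-type genes ins-23 and ins-21, averaged 0.451 and 0.024 CPM. ins-34 was the steadiest of the family, at 2.24, 2.40, 2.77 and 2.44 CPM with cpr-6 RNAi, against 2.63, 2.07, 2.19 and 2.16 CPM with the empty vector. ins-10 stood at 1.03, 2.0, 1.02 and 1.95 CPM with cpr-6 RNAi, against 2.63, 1.55, 1.49 and 1.12 CPM with the empty vector. ins-10 overlaps vps-39 on the other strand, and since the use of strand in counting is not given, its counts are uncertain.

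The other 22 genes stayed below a mean of 1 CPM. ins-39 (0.964 CPM), ins-37 (0.902), ins-35 (0.674), ins-26 (0.659) and ins-20 (0.509) lay between 0.5 and 1 CPM. Means of 0.1 to 0.5 CPM were found for ins-23, ins-14, ins-16, ins-11, ins-29, ins-33, ins-32 and ins-8, each with at most 8 counts in any library. ins-33, linked to germline proliferation in larvae, had 2, 3, 0 and 3 counts with cpr-6 RNAi and 2, 1, 1 and 0 with the empty vector. ins-11, a peptide of the immune response to bacteria and the table's only gamma-type peptide, had 2, 1, 1 and 2 counts with cpr-6 RNAi and 3, 2, 2 and 3 with the empty vector. ins-12, ins-36, ins-13, ins-21, ins-31, ins-15, ins-25 and ins-9 had 7, 5, 3, 2, 2, 1, 1 and 1 counts over all 8 libraries. ins-38, with no count, is called protein-coding in the deposited table and a pseudogene in Ensembl release 115.

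Genes with few counts often had gene models without a 3′ untranslated region in the deposited table. In a library of 3′ ends, reads that fall past the end of a gene model are not counted for that gene. Against the coding ends of Ensembl release 115, the deposited gene boundary of 11 insulin-like peptide genes ended at or before the last coding base, and none of these reached 1 CPM. These were ins-8, ins-9, ins-11, ins-12, ins-13, ins-15, ins-16, ins-21, ins-25, ins-31 and ins-36, with 1 to 23 counts each over all libraries. Of the 28 genes whose boundary reached past the coding end, 18 (64.3%) stood at 1 CPM or more. Over all protein-coding genes the corresponding shares were 5.62% of 5271 genes and 70.4% of 14627 genes. Release 115 gives 10 of these 11 genes a 3′ untranslated region, of 41 bases in ins-31 to 157 bases in ins-25. Whether reads of these genes were lost in this way or the transcripts were rare cannot be told apart here. Of the 11 genes, ins-13 also overlaps acdh-2 on the same strand, and ins-36 overlaps Y53H1A.7 and anr-40 on the other strand. Counts of ins-13 and ins-36 are uncertain for that reason too. The 10 genes below 1 CPM whose boundary passed the coding end did so by 9 bases (ins-37) to 138 bases (ins-33). Of these, ins-23 and ins-39 still ended 97 and 79 bases short of their 3′ ends in release 115. Among genes at 1 CPM or more the largest such gap was 142 bases, in ins-30. The annotation used for counting is not given, and its gene ends may differ from the deposited boundaries.

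**Figure D3:**
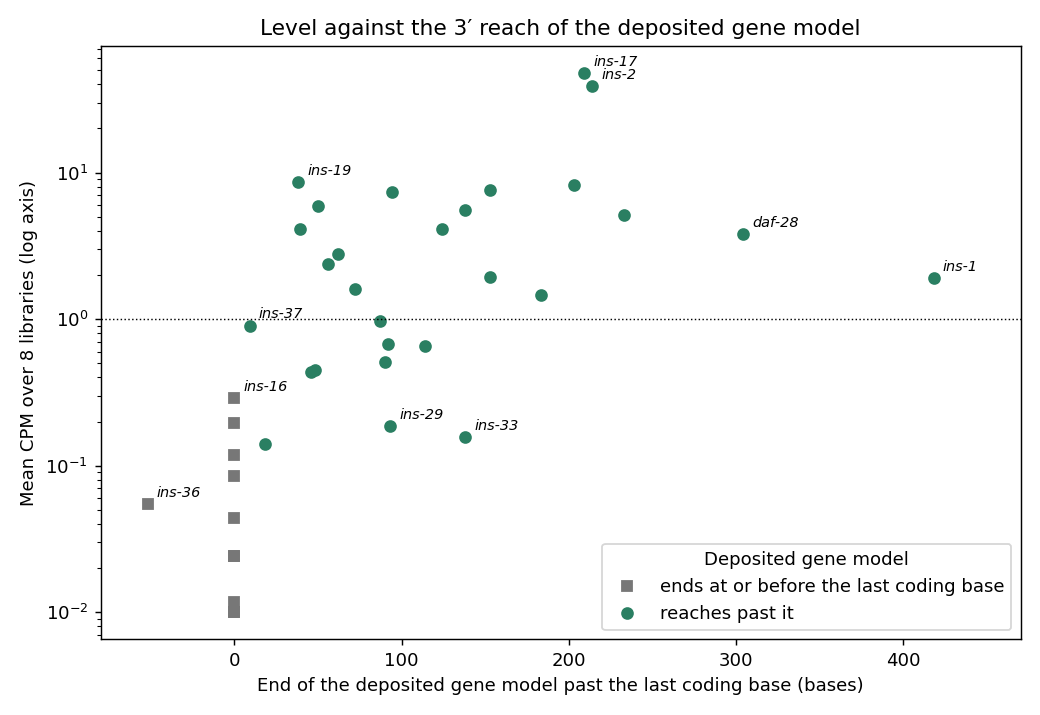
Mean CPM over the 8 libraries (log axis) against the number of bases by which the deposited gene boundary reaches past the last coding base, 1 point per insulin-like peptide gene (39 genes, since ins-38 has no coding region in the annotation). The 11 genes drawn as grey squares end at or before the last coding base and all lie below the dotted line at 1 CPM.

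No insulin-like peptide gene changed under cpr-6 RNAi by the test used. The low-count filter kept 19 genes, namely the 18 at 1 CPM or more and ins-37, and 0 of these passed edgeR's quasi-likelihood test, where 0.00915% of the 10932 genes tested did, namely cpr-6 alone. At an unadjusted p under 0.05 there were also 0, against 3.85% of all genes tested. DESeq2 likewise called 0, with 0.0250% of all genes called, and so did edgeR without the filter, with 0.140%. The groups overlapped for all 19 genes, where 2.63% of all genes tested did not overlap. Benjamini-Hochberg adjusted p-values in edgeR were 0.997 to 1.00, the smallest unadjusted edgeR p was 0.136, and exact two-sided permutation p-values ran from 0.200 to 1.00, where 4 against 4 allows 0.0286 at the least. The authors' deposited table gives values for 25 of the 40 genes, with 0 at an adjusted p under 0.05 or an unadjusted p under 0.05 and a smallest unadjusted p of 0.121. Its largest log2 fold change was 1.01 ± 0.651 (SE) for ins-26, which the low-count filter removed here. ins-26 had 8, 9, 9 and 8 counts with cpr-6 RNAi and 1, 3, 6 and 11 with the empty vector.

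Fold changes were small relative to their errors. Among the 19 genes tested, the largest estimate was that of daf-28, 0.43 ± 0.276 on the log2 scale (SE, adjusted p 0.997 in edgeR), with a 95% interval of -0.11 to 1.04. It averaged 4.33 ± 1.03 CPM with cpr-6 RNAi and 3.23 ± 1.296 CPM with the empty vector (SD, n = 4 each). ins-27 followed at 0.41 ± 0.278 (interval -0.24 to 0.93), with 4.71 ± 1.80 CPM under cpr-6 RNAi and 3.501 ± 0.860 CPM under the empty vector. The lowest was ins-2, at -0.37 ± 0.424 (interval -1.40 to 0.75), with 33.7 ± 13.2 CPM under cpr-6 RNAi and 43.8 ± 18.6 CPM under the empty vector. The best determined was ins-17, at 0.17 ± 0.128 (interval -0.12 to 0.43), with 50.4 ± 9.06 CPM under cpr-6 RNAi and 45.2 ± 6.20 CPM under the empty vector. Among the other abundant genes, ins-19 had 0.00 ± 0.361, ins-3 0.15 ± 0.299, ins-24 0.27 ± 0.340 and ins-28 0.15 ± 0.210 (log2 fold change ± SE, edgeR adjusted p 0.997 to 1.00). The scarcer ins-22 had 0.02 ± 0.263, ins-34 0.14 ± 0.243, ins-30 -0.17 ± 0.378, ins-10 -0.17 ± 0.358, ins-5 0.29 ± 0.518 and ins-37 0.28 ± 0.434 (all with an edgeR adjusted p of 0.997). The antagonist genes ins-18 and ins-1 had log2 fold changes of 0.18 (interval -0.32 to 0.59) and 0.11 (-0.60 to 0.75). The agonist genes ins-4, ins-6 and ins-7 had 0.18 (-0.31 to 0.64), 0.16 (-0.34 to 0.67) and 0.27 (-0.35 to 0.76). Intervals of 14 of the 19 genes lay within 2-fold in either direction, and the exceptions were ins-2, ins-5, ins-24, ins-37 and daf-28. The half-width of the interval had a median of 0.59 on the log2 scale over the 19 genes, against 0.33 over all genes tested.

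**Figure D4:**
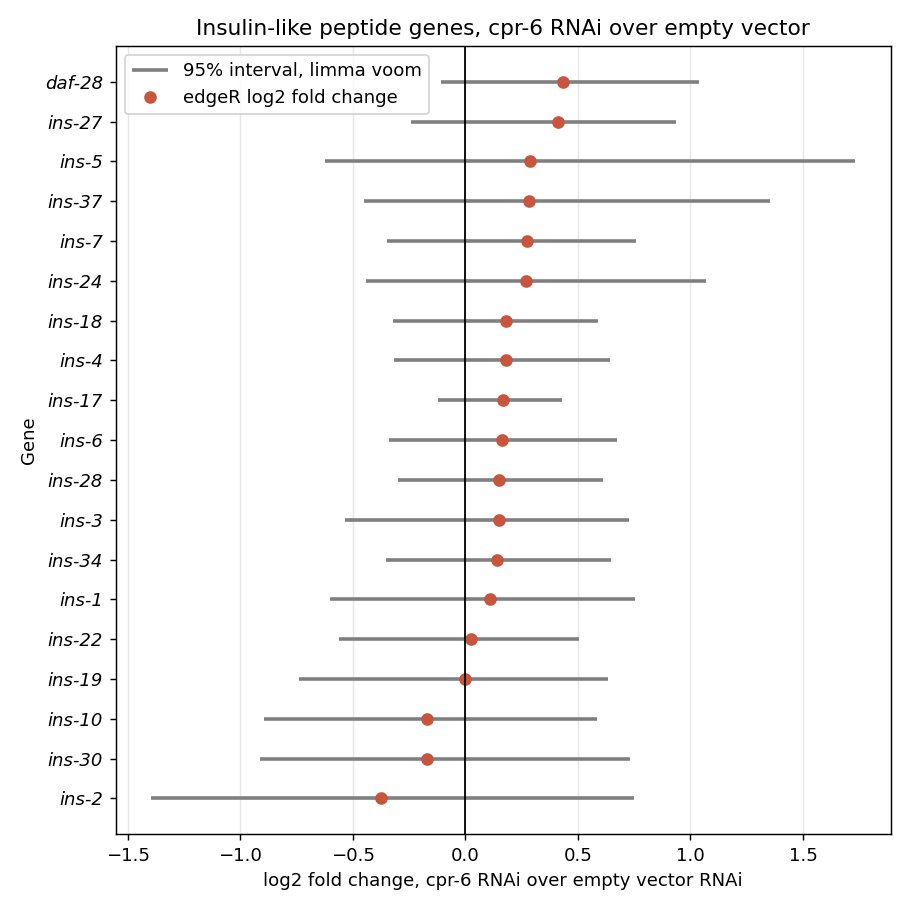
Log2 fold change of the 19 tested insulin-like peptide genes, cpr-6 RNAi over empty vector (points, edgeR), with 95% intervals from limma voom (lines). Every interval includes 0, and daf-28 (0.43) and ins-2 (-0.37) are the extremes.

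Most tested genes had estimates above 0, by an amount that varied with the libraries used. Log2 fold changes were above 0 for 16 of 19 genes with a median of 0.16, where 50.2% of all genes tested lay above 0 with a median of 0.00. Only genes that passed the filter enter this count, and no member passed the test. Leaving out 1 library at a time left 12 to 16 of the 19 above 0. Without cpr-6 RNAi replicate 4 the median was 0.07 and 12 genes lay above 0. Among the empty vector libraries, leaving out replicate 1 gave a median of 0.10, leaving out replicate 2 gave 0.08 and leaving out replicate 3 gave 0.28. In cpr-6 RNAi replicate 4, 18 of the 19 genes lay above their own mean over the 8 libraries, with a median deviation of 0.34 on the log2 scale, and only 4 did in cpr-6 RNAi replicate 1 and 3 in replicate 2 of the empty vector. The corresponding shares of all genes tested were not computed. Over genes in general, pairs of cpr-6 RNAi libraries with replicate 4 had a chi-square per degree of freedom of 23.6 to 26.1. The other cpr-6 RNAi pairs had 5.44 to 10.5. The same cpr-6 RNAi replicate 4 had the lowest germline and embryo marker sum (2908 CPM, against 3797 CPM or more in the empty vector libraries), and oma-2 stood at 888 CPM there, against 1200 to 1350 CPM with the empty vector. Whether the germline level bears on the levels of the peptides was not tested. The authors' deposited fold changes match a DESeq2 model that sets replicates 1 and 2 apart from 3 and 4, a division the labels do not explain. Within replicates 1 and 2 the median difference over the 19 genes was 0.12, and within replicates 3 and 4 it was 0.21. The sign was the same in both for 11 of 19 genes. ins-2 differed by -0.91 within replicates 1 and 2 and by 0.26 within replicates 3 and 4, ins-24 by 0.74 and 0.02, and daf-28 by 0.66 and 0.26.

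Libraries of a group often differed by more than counting error, as they did over all genes. The SD of CPM within groups was above 2 times the SD that counting alone gives for 9 of the 19 tested genes (47.4%), against 46.2% of all genes tested. These shares were not matched for expression level, so they do not compare the extent of the scatter. The SD within groups was 16.1 CPM for ins-2, where counting gives 1.94 CPM, and 7.76 CPM for ins-17, where counting gives 2.17 CPM. For ins-34 alone of the 19 it was smaller (0.237 CPM) than counting gives (0.482 CPM). ins-2, ins-3 and ins-19 were all above their own means in replicate 4 of cpr-6 RNAi and in replicate 1 of the empty vector, and all below them in cpr-6 RNAi replicates 1 and 3 and in replicate 3 of the empty vector, a pattern that ins-10 and ins-22 shared, and with them 8.99% of all genes tested. Of the 19 genes, 12 (63.2%) were below their own means in both replicates 1 and 2 of the empty vector, among them ins-4, ins-6, ins-24 and daf-28, as were 29.7% of all genes tested. The proprotein convertase gene egl-3 averaged 94.3 ± 6.05 CPM with cpr-6 RNAi and 84.3 ± 19.3 CPM with the empty vector (SD, n = 4 each), and its lowest libraries were empty vector replicates 1 and 2, at 65.2 and 70.4 CPM. The carboxypeptidase gene egl-21 stood at 224, 228, 272 and 291 CPM with cpr-6 RNAi, against 183, 211, 277 and 274 CPM with the empty vector. Whether these levels bear on those of the peptides was not tested.

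**Figure D5:**
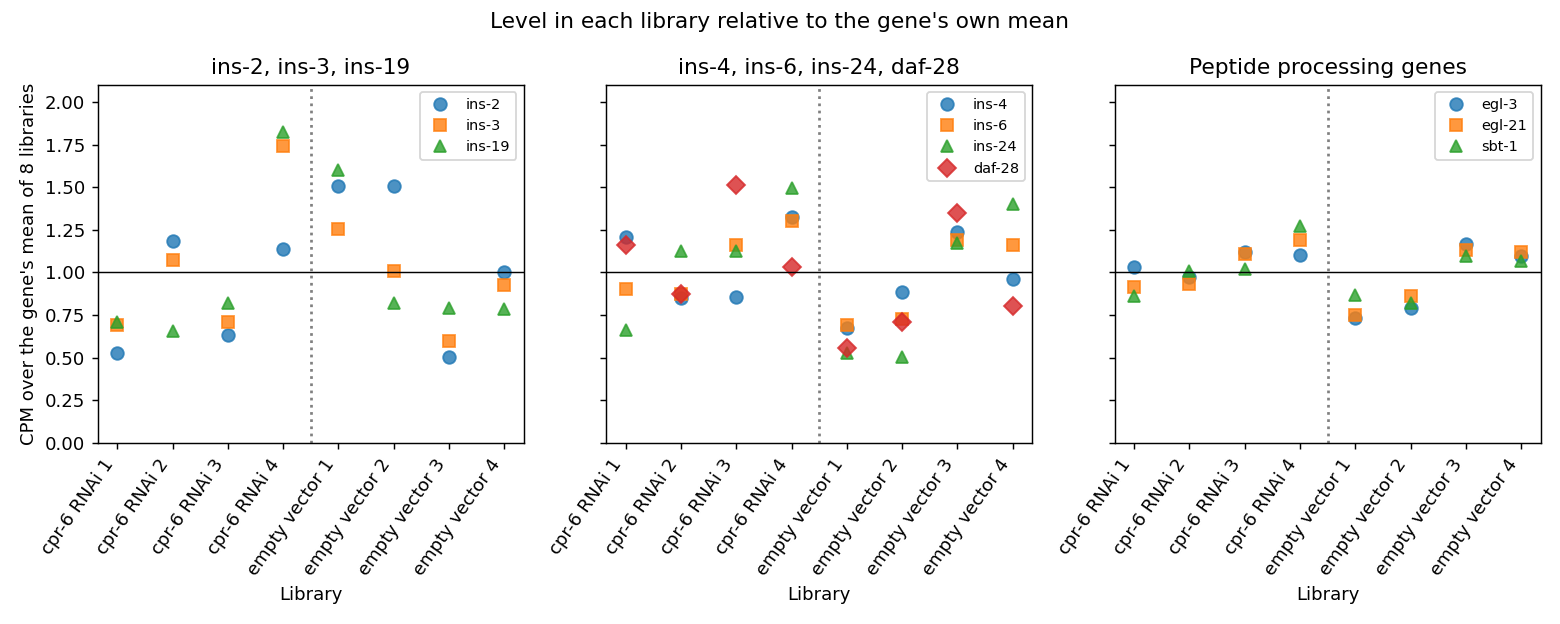
CPM of each gene in each library divided by the gene's mean over 8 libraries, with cpr-6 RNAi replicates 1 to 4 left of the dotted line and empty vector replicates 1 to 4 right of it. ins-2, ins-3 and ins-19 lie above 1 in replicate 4 of cpr-6 RNAi and replicate 1 of the empty vector, whereas ins-4, ins-6, ins-24, daf-28, egl-3, egl-21 and the EGL-3 chaperone gene sbt-1 lie below 1 in empty vector replicates 1 and 2.

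Genes that process, secrete and receive the peptides did not pass the test either. Of 28 genes for peptide processing and secretion, 24 were tested and 0 passed edgeR's test in either direction, with 0 at an unadjusted p under 0.05, a median log2 fold change of 0.05 and 16 above 0. The log2 fold change was 0.18 for egl-3 (interval -0.09 to 0.48), 0.12 for egl-21 and -0.20 for the convertase gene kpc-1. The SNAP-25 gene ric-4 and the dense core vesicle gene ric-19 had 0.24 and -0.43, and hid-1, needed for vesicle maturation, 0.22. unc-31, needed for dense core vesicle release, had only 11 counts over all libraries and was not tested. Of 23 genes of insulin/IGF signalling, 20 were tested, 0 passed in either direction and 1 had an unadjusted p under 0.05, where 3.85% of all genes tested did. The median was -0.07 and 5 of the 20 lay above 0, where 50.2% of all genes did. The sum over the 23 genes was 4145 CPM in cpr-6 RNAi replicate 4 and 4553 to 4621 CPM in replicates 1 to 3. With the empty vector it was 4545 to 4756 CPM. The median without cpr-6 RNAi replicate 4 was not computed for this list. The gene at an unadjusted p under 0.05 was rle-1, a ubiquitin ligase gene acting on DAF-16, at 4.01 ± 1.04 CPM with cpr-6 RNAi and 5.80 ± 1.42 CPM with the empty vector (log2 fold change -0.52, edgeR adjusted p 0.997). The receptor gene daf-2 was itself scarce, at 2.52, 0.999, 2.95 and 2.08 CPM with cpr-6 RNAi, against 2.53, 3.63, 2.11 and 2.32 CPM with the empty vector. The groups overlapped, and its log2 fold change was -0.27. The PI3-kinase gene age-1 had -0.24, daf-16 -0.10, the DAF-16 cofactor gene smk-1 -0.20 and the kinase gene akt-2 0.41. Among 14 other growth factor ligands of the TGF-beta, FGF, EGF, VEGF and Wnt families, 13 were tested and 0 passed in either direction, with a median of 0.00 and 0 at an unadjusted p under 0.05. The smallest p-values there belonged to the Wnt genes egl-20 (log2 fold change -0.49), mom-2 (-0.14) and cwn-2 (0.54) and to the TGF-beta gene dbl-1 (-0.49). The TGF-beta ligand gene daf-7, expressed like daf-28 in sensory neurons, stood at 8.49, 7.29, 7.11 and 10.9 CPM with cpr-6 RNAi, against 5.69, 4.87, 6.58 and 10.4 CPM with the empty vector. Its groups overlapped, and the difference was 0.29 on the log2 scale (adjusted p in edgeR 0.997).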

How the data were processed

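Read counts per gene were deposited by the authors in 1 table for the 8 libraries. The submitters' processing notes name cutadapt 2.10, TopHat2 2.1.1, HTSeq 0.12.4, DESeq2 1.30.1 and the build WBcel235, while the annotation and the strand setting of the counting step were not stated there. The table also holds log2 fold changes, p-values and adjusted p-values deposited by the authors, and 8 columns of normalized values that were not used. Counts were divided by library totals to give CPM. Groups were compared with edgeR 4.0.16 (libraries scaled by TMM, low genes removed by filterByExpr at its minimum count of 10, quasi-likelihood test, 2-sided, Benjamini-Hochberg adjustment over all 10932 genes tested, threshold 0.05), fitted on all 8 libraries in R 4.3.3. Intervals of 95% came from limma 3.58.1 (voom), and DESeq2 1.42.0, another scaling, other filters, a replicate block and leaving out each library were alternatives. The procedure was tested on simulated data. The members and gene lists were chosen with earlier results of these data known. Members with a mean of 1 CPM or more are given in every library, and other members by counts or means. From each gene list, those with the smallest p and a few fixed genes are named. daf-7, the marker genes named for neurons, intestine and oocytes, and the genes grouped by shared highs and lows, were chosen after their values were seen, and the comparison of gene ends was added after the data were seen. Gene ends were compared with Ensembl release 115, which holds 46817 of the 46904 deposited identifiers and all 40 members. No label says that the pools came from separate cultures, so p-values speak only of the scatter among these 8 libraries, which may be technical.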

Additional observations from a re-analysis of the deposited data

Results flagged for a closer look

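Of 54 groups of 4 libraries checked for a sample far from the others, 4 held one, and chance alone gives about 1 in 20. ins-19 stood at 15.6 CPM in cpr-6 RNAi replicate 4, while the other cpr-6 RNAi libraries lay between 5.59 and 7.01 CPM. It stood at 13.7 CPM in empty vector replicate 1, while the other empty vector libraries lay between 6.72 and 7.04 CPM. The summed level of all insulin-like peptide genes was 153 CPM in empty vector replicate 3 and 165 to 166 CPM in the other empty vector libraries. age-1, the PI3-kinase gene downstream of the receptor, stood at 36.8 CPM in empty vector replicate 3 and at 32.6 to 32.9 CPM in the other empty vector libraries.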

How the results depend on the processing

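No insulin-like peptide gene passed the test under any alternative run. Over these runs, the lowest adjusted p of the 19 genes tested in the main run was 0.841 (edgeR with no low-count filter). The log2 fold change of ins-19, 0.00, was -0.0268 with DESeq2, -0.0111 with RLE scaling, -0.0528 with limma voom, -0.0257 with no low-count filter and -0.0175 with a term for replicates 1 and 2 against 3 and 4, the last chosen after seeing the data. That of ins-22 was -0.0273 with limma voom. Leaving out 1 library at a time turned the sign of 8 genes, with ranges of -0.18 to 0.36 for ins-1, -0.35 to 0.12 for ins-10, -0.43 to 0.32 for ins-19, -0.20 to 0.14 for ins-22, -0.00622 to 0.28 for ins-28, -0.18 to 0.32 for ins-3, -0.41 to 0.18 for ins-30 and -0.0747 to 0.88 for ins-5. The cause was not tested. The other 11 tested genes kept their direction. Over all genes, calls numbered 1 with edgeR, 5 with DESeq2 and 28 with no low-count filter. With the replicate number as a block, 0 members and 2 genes in all passed, and ins-19 had -0.0240. Deviations of same-numbered libraries correlated at -0.03, 0.12, 0.02 and 0.25, and not every library correlated best with its own number, so the libraries were not treated as paired. The low-count filter kept 21 genes out of the test, with at most 19 counts in any library, and with no filter or with DESeq2, which tested all of them but ins-38, none passed.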
